A study of Mus musculus with 6 samples.

Results

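The S100 genes encode small calcium-binding proteins of the EF-hand family, and 10 of them, *S100a8*, *S100a9*, *S100a14*, *S100a6*, *S100a10*, *S100a11*, *S100a13*, *S100a1*, *S100a4* and *S100g*, were followed in mouse stomach antrum. Their members on the array were all probe sets whose platform annotation gave 1 of these symbols and no other gene. That rule found 11 of 22690 probe sets, for 9 of the 10 genes. The 1 probe set that lists *S100a11* also lists 2 other loci, so *S100a11* is not analysed here. Total RNA of the antrum, the distal part of the glandular stomach, was measured on 6 Affymetrix expression arrays, 2 each for C57/BL6 (BL6), Beige and Satin mice. BL6 and Beige are titled as controls. As background, Satin is a coat mutant of *Foxq1*, which encodes a forkhead transcription factor, and Beige is a coat mutant of *Lyst*. No treatment is named. Age, sex and genetic background were not given in the sources used here. Labels speak of 2 mice per strain but do not tie each array to 1 mouse, so the tests measure the spread between arrays, which may be technical.

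S100 proteins work as dimers that expose a binding surface when calcium enters the cell, and several also act outside the cell. S100A8 and S100A9 pair to form calprotectin, an abundant cytosolic complex of neutrophils that binds zinc and manganese at sites of infection and is also made by stressed squamous epithelium. S100A14, S100A6, S100A10 and S100A11 are found in many epithelia, and S100G, also called calbindin-D9k, carries calcium across the intestinal epithelium under the control of vitamin D. S100A4 is known from fibroblasts and motile cells, S100A1 from muscle, and S100A13 from the non-classical export of fibroblast growth factor. In the RefSeq gene table of GRCm38.p6, 9 of the 10 genes lie on chromosome 3, where *S100a8* and *S100a9* are neighbours, and *S100g* lies on chromosome X.

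Promoter sequences from RefSeq on GRCm38.p6, from 250 bases before to 50 bases after the annotated start, were at hand for 8 of the 10 genes, which leaves out *S100a14* and *S100a10*. Both strands were searched for 3 motifs. The TATA box was spelled TATAAA. The core shared by many forkhead sites was spelled TGTTTA. The C/EBP motif, a family that includes myeloid regulators, was spelled TTNNGNAA, and its matches may overlap each other. The promoters of the *S100a8* and *S100a9* pair are shown because they stand for the neutrophil members, and those of *S100a6* and *S100g* because they alone among the 8 held the forkhead core. Capitals mark the matched letters.
S100a8 promoter, chr3:90668821-90669120, + strand: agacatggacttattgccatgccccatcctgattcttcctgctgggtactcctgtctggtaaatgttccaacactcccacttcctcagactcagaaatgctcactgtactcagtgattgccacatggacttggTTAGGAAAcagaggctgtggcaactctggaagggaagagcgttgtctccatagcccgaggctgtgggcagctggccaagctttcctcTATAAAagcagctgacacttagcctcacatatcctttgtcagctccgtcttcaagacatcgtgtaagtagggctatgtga
S100a9 promoter, chr3:90695672-90695971, - strand: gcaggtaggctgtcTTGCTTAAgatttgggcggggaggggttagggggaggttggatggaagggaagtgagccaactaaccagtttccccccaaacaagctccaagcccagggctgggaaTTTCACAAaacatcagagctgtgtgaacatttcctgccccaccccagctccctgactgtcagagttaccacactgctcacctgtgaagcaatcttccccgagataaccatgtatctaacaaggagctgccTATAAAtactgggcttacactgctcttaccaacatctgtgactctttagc
S100a6 promoter, chr3:90612644-90612943, + strand: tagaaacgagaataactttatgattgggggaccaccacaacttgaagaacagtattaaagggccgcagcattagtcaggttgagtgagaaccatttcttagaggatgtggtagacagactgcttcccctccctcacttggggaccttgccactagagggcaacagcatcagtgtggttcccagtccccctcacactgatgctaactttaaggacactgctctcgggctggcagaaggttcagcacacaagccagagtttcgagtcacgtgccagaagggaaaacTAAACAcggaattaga
S100g promoter, chrX:162964550-162964849, - strand: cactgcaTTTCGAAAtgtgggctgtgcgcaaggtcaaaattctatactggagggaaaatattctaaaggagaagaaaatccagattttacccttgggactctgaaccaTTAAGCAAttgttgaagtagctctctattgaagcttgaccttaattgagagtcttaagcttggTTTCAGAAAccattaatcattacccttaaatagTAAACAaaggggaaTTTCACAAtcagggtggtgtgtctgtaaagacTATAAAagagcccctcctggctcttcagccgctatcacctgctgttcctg
The TATA box letters were in 4 of the 8 member promoters (*S100a8*, *S100a9*, *S100a4* and *S100g*), against 13.6% of 32544 windows of the same length. The forkhead core was in 2 of 8, against 13.4% of all windows, and the C/EBP letters were in 3 of 8 (*S100a8*, *S100a9* and *S100g*), against 40.7%. The windows of *S100a13* and *S100a1* overlap on opposite strands and held none of the 3 motifs, so the 8 windows are not fully separate. Relative to the annotated start, the TATA letters began at position -30 in *S100a8*, -31 in *S100a4* and 1 in both *S100a9* and *S100g*, so in the last pair they lay at the start itself. The C/EBP letters of *S100a8* began at -117, and the forkhead letters began at 35 in *S100a6* and at -46 in *S100g*. These are matches of letters and not binding sites, and no binding was measured in this series.

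Signals are given below as deposited, on a linear scale, and differences as log2(signal + 32) after quantile normalization, which gives all arrays the same distribution of values. On this scale a dim gene's change is understated, and differences are relative to the bulk of genes. Median signals ran from 38.2 to 49.5 on the control arrays and were 74.15 and 58.6 on the Satin arrays. Without normalization the median gene was therefore higher in Satin by 0.43. BL6 replicate 1 stood apart in RNA quality, with a *Gapdh* ratio (5' signal over 3' signal) of 0.526, against 0.988 to 1.18 on the other arrays. The 2 Satin arrays had the highest ratios, 1.18 and 1.16 against up to 1.02 in the controls. The like ratio of actin was also highest there, at 0.789 and 0.80 against 0.44 to 0.729. The *Gapdh* ratio as a covariate therefore partly follows strain, and the 2 cannot be fully told apart. Replicate 2 arrays held more pancreatic acinar RNA in each strain. The summed signal of 9 acinar genes was 10650 on BL6 replicate 1 and 87452 on replicate 2, 11562 and 20050 in Beige, and 11507 and 48940 in Satin. Epithelial RNA was abundant on every array, with *Krt8*, a keratin of glandular epithelium, at 6595 to 7080.

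In the Satin antrum, *S100a8* rose and *S100a14* fell against the mean of the 2 control strains, while 6 other tested members did not pass the test. *S100a8*, the neutrophil member, was higher by 1.83 (SE 0.30) on the log2 scale, and *S100a14*, an epithelial member, was lower by 0.97 (SE 0.18). The 8 tested members had a median difference of -0.34, against 0.00 for all genes, with 2 above and 6 below 0. Members called numbered 2 of 8, where 1.44% of the 9395 genes tested were called (0.436% higher and 1.00% lower). At an unadjusted p under 0.05 there were 5 of 8 members, against 12.6% of all genes. *S100a9*, the ninth gene measured, fell below the filter that removed the dimmest 30% of probe sets and was not tested with the others. *S100a8* passed that filter, with a mean of 6.02 against a threshold of 5.74, only through its level in Satin.

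**Figure D1:**
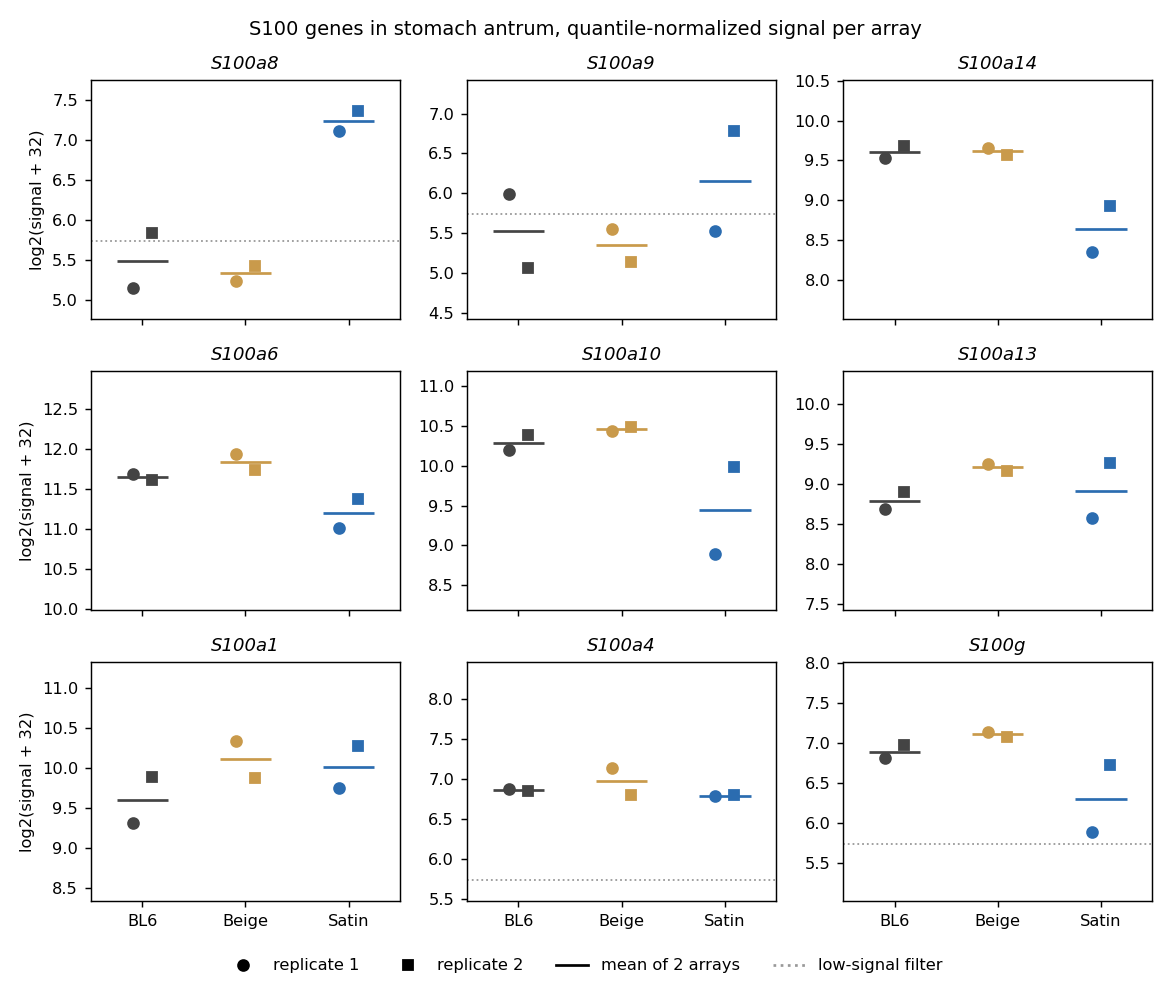
Quantile-normalized log2(signal + 32) of the 9 S100 genes on each of the 6 arrays (circles, replicate 1; squares, replicate 2), with a bar at the mean of the 2 arrays of a strain and a dotted line at the low-signal filter of 5.74; every panel spans 3 log2 units. *S100a8* stood at 7.11 and 7.36 in Satin against 5.15 to 5.83 in the controls, *S100a14* at 8.35 and 8.93 against 9.54 to 9.68, and *S100a9* was high on Satin replicate 2 alone.

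*S100a8* encodes a subunit of calprotectin. Its signal was 3.2 and 17.7 on the BL6 arrays, 5.2 and 10.7 on those of Beige, and 149.3 and 162.1 on those of Satin. Both Satin arrays lay above all 4 control arrays, and the 2 Satin values were close to each other. On the log2 scale the means were 5.49 ± 0.48 for BL6 (SD, n = 2), 5.33 ± 0.13 for Beige and 7.24 ± 0.18 for Satin. The difference of 1.83 had a 95% interval of 1.14 to 2.51 and an adjusted p of 0.0219 with limma. It ranked 18 from the top among 9395 genes. The control signals were so low that no exact fold is given. With a pseudocount of 8 or 100 the difference was 2.84 or 0.99. Against Beige it was 1.91 (SE 0.35, adjusted p = 0.0444) and against BL6 1.75 (SE 0.35, adjusted p = 0.0668). These 2 comparisons share the Satin arrays, and between Beige and BL6 the difference was -0.16 (SE 0.35). Leaving out 1 array ended the call against both controls for Satin replicate 1 (adjusted p = 0.193), Satin replicate 2 (0.227), Beige replicate 1 (0.109) and Beige replicate 2 (0.083). It also ended with the *Gapdh* ratio as a covariate (1.49, adjusted p = 0.134) and with the pseudocount of 8 (0.0585). The probe set is of the kind named with an s suffix, whose probes can match more than 1 transcript.

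*S100a9*, the partner subunit, had signals of 30.2 and 1.0 on the BL6 arrays, 13.7 and 2.9 on those of Beige, and 21.2 and 92.4 on those of Satin. Satin replicate 2 was above every other array, while Satin replicate 1 lay within the range of the controls. With no filter the difference in Satin was 0.72 (SE 0.41, 95% interval -0.22 to 1.66, adjusted p = 0.625 over 12393 genes). That interval is wide, and it reaches up to values inside the interval of *S100a8*. The partners were therefore both high on Satin replicate 2, and on Satin replicate 1 *S100a8* was high with *S100a9* at control level.

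Other neutrophil genes gave no call. Of 32 listed markers 26 were on the array and 14 of these lay below the filter. Of the 12 tested, 0 were called with limma and 2 had an unadjusted p under 0.05. In all 8 lay above 0 and 4 below, and their median was 0.12 against 0.00 for all genes. Satin lay above all controls in 2 of the 12, *Cd177* and *Csf3r*, where 10.9% of all genes tested did so. In 2 of the 12 Satin lay below all controls, where 12.7% of all genes tested did so. *Cd177*, with a control mean of 5.44 against the filter of 5.74, was among the 12 only through its level in Satin. On deposited signals Satin lay above all controls in 7 of the 26 markers on the array (*Cd177*, *Csf3r*, *Elane*, *Fpr2*, *Clec4d*, *Ncf4* and *Chil1*) and below in 1, *Prtn3*. Over all 12393 genes the shares on that scale were 36.1% and 2.40%. *Cd177*, a surface protein of neutrophils, had signals of 1.8 and 22.2 on the BL6 arrays, 3.9 and 13.3 on those of Beige, and 108.4 and 84.4 on those of Satin, with a difference of 1.30 (SE 0.34, adjusted p = 0.126). *Csf3r*, the receptor for granulocyte colony-stimulating factor, differed by 0.76 (SE 0.28, adjusted p = 0.28). Among the scalings, 2 of the listed markers were called on unnormalized arrays and 2 after scaling to the hybridization controls. Over all genes 1531 of 9388 and 2271 of 9385 were called in these 2 settings. The granule genes *Camp* and *Ctsg* and the chemokine receptor gene *Cxcr2* were dim on all arrays, with signals up to 9.4, 26.1 and 9.5. The summed signal of the 26 genes was 440 to 578 in BL6, 563 to 666 in Beige and 894 to 998 in Satin, and after normalization 603 to 635, 613 to 712 and 703 to 793. The part of neutrophils in the *S100a8* difference was not tested. In bulk tissue, more cells of a type and more RNA per cell cannot be told apart.

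**Figure D2:**
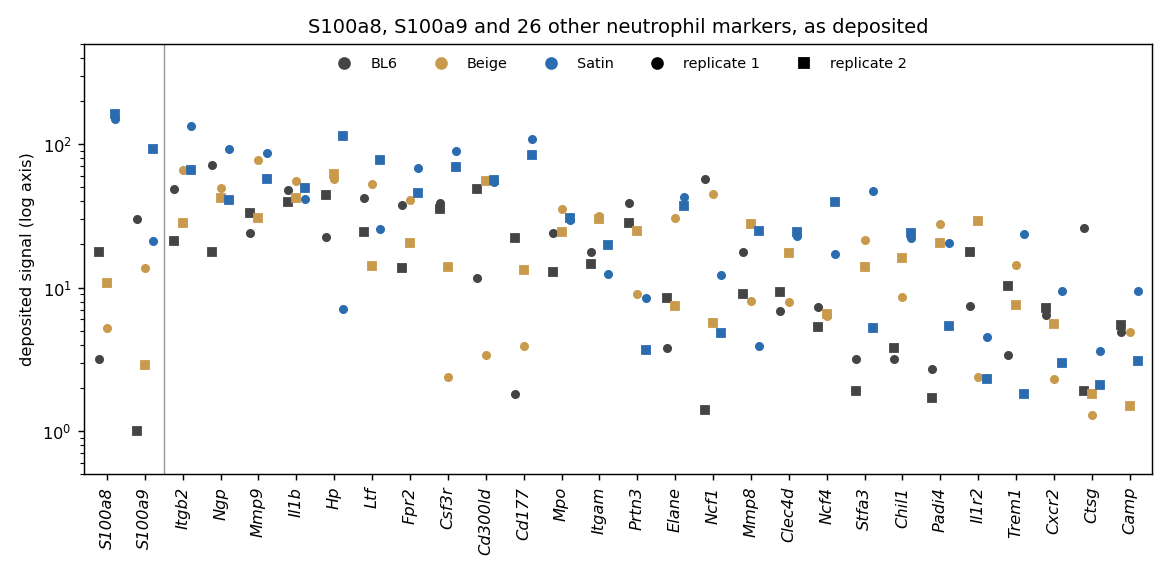
Deposited signal on a log axis of *S100a8*, *S100a9* and 26 other neutrophil markers, ordered by their mean, on each array (colours, strains; circles, replicate 1; squares, replicate 2). Both Satin arrays lay above all controls for *S100a8* and 7 of the other markers, below for *Prtn3*, and overlapped the controls for *S100a9* and the rest.

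Genes that attract neutrophils were also at low levels. Of 16 on the array 11 lay below the filter and 0 of 5 tested were called with limma, with 0 at an unadjusted p under 0.05. *Icam1*, an adhesion molecule for leukocytes that passed the filter only through Satin, differed by 0.54 (SE 0.31, adjusted p = 0.543) and *Il17a* by -0.44 (SE 0.33, adjusted p = 0.656). Squamous epithelium, the lining of the mouse forestomach, can also make S100A8 and S100A9. Of 19 squamous markers on the array 12 were tested and 0 called with limma, 3 at an unadjusted p under 0.05, with a median of -0.03. On unnormalized arrays, on the hybridization scale and with the robust option 2 were called. Over all genes 1531 of 9388, 2271 of 9385 and 228 of 9395 were called in these settings. *Krt6b*, a keratin of stressed squamous epithelium, had signals of 2.0 to 28.9 on the control arrays and 181.2 and 76.9 in Satin, a difference of 1.49 (SE 0.36, adjusted p = 0.089). Its control mean of 5.49 was under the filter, so it was tested only through its level in Satin. *Sprr1a*, a cornified envelope gene, differed by -0.86 (SE 0.21, adjusted p = 0.0889). The summed squamous signal was 1565 to 1966 in BL6, 2245 to 2614 in Beige and 2089 to 2400 in Satin, so the groups overlapped. After normalization it was 1959 to 2440, 2440 to 2538 and 1734 to 1740, with Satin lowest. *Sprr1a* was the largest part of the deposited sum on every array, with signals of 865.9 to 1584, so the sum in large part restates that gene. On deposited signals Satin lay above all controls in 4 of the 19 (*Krt14*, *Krt6b*, *Krtdap* and *Ppl*) and below in 1, *Sprr1a*, against the same 36.1% and 2.40%. *Krtdap*, a gene of differentiating keratinocytes, had signals of 10.4 to 218 on the control arrays and 229.9 and 262.3 in Satin. *Krt14*, a basal keratin, had 1.4 to 15.4 and then 53.8 and 45.1, and was below the filter. *Krt15* and *Sprr1b* were dim on all arrays, at up to 4.0 and 10. The part of squamous tissue in the *S100a8* difference was not tested. Macrophage and monocyte markers had 0 of 12 called with limma, 1 at an unadjusted p under 0.05, and a median of -0.29, with *Mrc1* at -0.57 (adjusted p = 0.225) and *Cx3cr1* at -0.67.

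The proposed receptors of extracellular S100 proteins gave no call with limma, with 0 of 10 tested, 2 at an unadjusted p under 0.05 and a median of -0.06. On unnormalized arrays 1 was called and on the hybridization scale 3, where 1531 of 9388 and 2271 of 9385 genes were called. *Ager*, the receptor for advanced glycation end products, was below the filter, with signals of 3.7 to 32.1. *Tlr4*, the receptor proposed for calprotectin, differed by -0.41 (adjusted p = 0.546), and its co-receptor gene *Ly96* by -0.67 (SE 0.27, adjusted p = 0.339). *Alcam*, an adhesion molecule, differed by -0.56 (SE 0.17, adjusted p = 0.172). Of the 10 tested, 4 lay above 0 and 6 below, with *Cd14* at 0.375 (SE 0.25, adjusted p = 0.607). On deposited signals Satin lay above all controls in 4 of the 11 on the array (*Cd14*, *Bsg*, *Erbb3* and *Myd88*) and below in 0. Over all 12393 genes the shares on that scale were 36.1% and 2.40%.

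For each of the 4 epithelial members measured, both Satin arrays lay below all 4 control arrays, a position that 12.7% of all genes tested shared. For *S100a10* this holds for the brighter probe set, and the second overlapped the controls. The stromal member *S100a4* also lay below, narrowly, at 6.791 and 6.794 against 6.805 to 7.144. Counting either direction, 6 of the 8 tested members did not overlap with the controls, against 23.7% of all genes. These 6 include *S100a8*, which was tested only through its level in Satin. The 4 epithelial members had a median difference of -0.81, against 0.00 for all genes. All 4 had an unadjusted p under 0.05, against 12.6% of all genes, and *S100a14* was the one that passed after adjustment. These positions hold on the normalized scale. As deposited, the Satin range overlapped that of the controls in each of the 4, and relative to the bulk of genes the differences were -0.87, -0.58, -0.85 and -0.77 for *S100a14*, *S100a6*, *S100a10* and *S100g*.

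*S100a14* is known from the plasma membrane and cytoplasm of epithelial cells. Its signal was 554.6 and 636.7 on the BL6 arrays, 652.5 and 820.8 on those of Beige, and 403.7 and 565.7 on those of Satin. As deposited, Satin replicate 2 lay between the 2 BL6 arrays. After normalization the means were 9.60 ± 0.10 for BL6 (SD, n = 2), 9.62 ± 0.06 for Beige and 8.64 ± 0.41 for Satin, and the groups did not overlap. The difference of -0.97 had a 95% interval of -1.38 to -0.57 and an adjusted p of 0.0328 with limma. It was -0.98 (SE 0.21, adjusted p = 0.0768) against Beige and -0.97 (SE 0.21, adjusted p = 0.0807) against BL6. On unnormalized arrays the difference was -0.44 (adjusted p = 0.153), with median centring -0.77 (0.206) and with hybridization controls as the scale -0.39 (0.158). The call ended when Satin replicate 1 was left out (-0.69, adjusted p = 0.365), or Beige replicate 1 (0.186) or Beige replicate 2 (0.148). It ended too with the *Gapdh* covariate (0.0963), and with no filter (0.0542), the mean of probe sets (0.0573) or no intensity trend (0.164).

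*S100a10* encodes the light chain that binds annexin A2 and links it to membranes. Its brighter probe set gave 867.4 and 1101.8 on the BL6 arrays, 1193.1 and 1563.0 on those of Beige, and 605.7 and 1198.8 on those of Satin. Satin replicate 1 was the lowest array, and Satin replicate 2 was level with Beige replicate 1 as deposited. The difference of -0.93 (SE 0.26) did not pass (adjusted p = 0.138). Without Satin replicate 2 it was -1.48 and passed (adjusted p = 0.00591), and without Satin replicate 1 it was -0.40 (adjusted p = 0.953), so the size depends on which Satin array is used. The second probe set gave 522.2 and 748.2 on the BL6 arrays, 1265.3 and 1578.9 on those of Beige, and 635.8 and 1199.1 on those of Satin, with a difference of -0.61 (SE 0.26, adjusted p = 0.403 over 15838 probe sets). The probe sets ran alike in Satin and Beige and apart in BL6. Beige minus BL6 was 0.17 (SE 0.30) by the first and 0.84 (SE 0.30) by the second. The first carries the x suffix, given to probe sets that can bind other transcripts.

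The annexins, membrane-binding partners of S100 dimers, had 0 of 7 called with limma, 2 at an unadjusted p under 0.05, 1 above and 6 below 0, and a median of -0.32. With a pseudocount of 100, the robust option, unnormalized arrays or the hybridization scale 1 was called. Over all genes these settings called 145 of 9386, 228 of 9395, 1531 of 9388 and 2271 of 9385. *Anxa2*, the partner of S100A10, differed by -0.44 (SE 0.21, adjusted p = 0.445) and *Anxa1*, the partner of S100A11, by -0.18 (adjusted p = 0.82). *Anxa3* had the smallest p of the list, with a difference of -0.89 (SE 0.18, adjusted p = 0.0526), and *Anxa7* differed by -0.42 (SE 0.13, adjusted p = 0.196).

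*S100a6*, which encodes calcyclin, had a high signal on every array. It was 2526.8 and 2868.8 on the BL6 arrays, 3439.0 and 3777.2 on those of Beige, and 2499.6 and 3139.6 on those of Satin. As deposited, Satin replicate 1 was just under both BL6 arrays and Satin replicate 2 lay between BL6 and Beige. The normalized difference was -0.55 (SE 0.15, adjusted p = 0.134). It was -0.65 (SE 0.17) against Beige and -0.46 (SE 0.17) against BL6, and against BL6 the sign turned on unnormalized arrays (0.06) and on arrays matched by their hybridization controls (0.18).

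*S100g* had a low signal, 70.2 and 71.8 on the BL6 arrays, 95 and 105.4 on those of Beige, and 39.5 and 86.2 on those of Satin. The 2 Satin arrays differed from each other by more than the control arrays did, with an SD of 0.59 on the log2 scale against 0.11 and 0.05. The difference of -0.70 (SE 0.26, 95% interval -1.29 to -0.10) did not pass (adjusted p = 0.294). It was -0.80 (SE 0.30) against Beige and -0.59 (SE 0.30) against BL6. Intestinal markers are given beside it. Of 16 intestinal markers tested 2 fell, *Fabp2*, an intestinal fatty acid binding protein (-4.62, SE 0.20, adjusted p = 4.8e-06), and *Rbp2*, a retinol binding protein (-1.16, SE 0.23, adjusted p = 0.0473), and 0 rose. The count called ran from 1 to 5 over 19 settings, with 1 under a pseudocount of 8 or median centring, 1 without either Beige array, and 5 on unnormalized arrays or the hybridization scale. On unnormalized arrays and the hybridization scale 1531 of 9388 and 2271 of 9385 genes were called. The intestinal list lay evenly around 0, with 8 above and 8 below and a median of 0.12. Its summed signal was 7192 to 12007 in BL6, 8385 to 10094 in Beige and 8763 to 11399 in Satin, and the part of intestinal tissue in the *S100g* values was not tested. Vitamin D and calcium transport genes were mostly dim, with 5 of 9 below the filter, among them *Vdr*, the vitamin D receptor gene, at 3.1 to 43.3. Of the 4 tested 0 were called with limma, and 0 had an unadjusted p under 0.05. *Trpv6*, the apical calcium channel that works with S100G, differed by -0.07 (adjusted p = 0.971), *Calr*, a calcium-binding chaperone, by -0.20 (adjusted p = 0.591) and *Slc8a1*, a sodium-calcium exchanger, by -0.34 (adjusted p = 0.828).

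**Figure D3:**
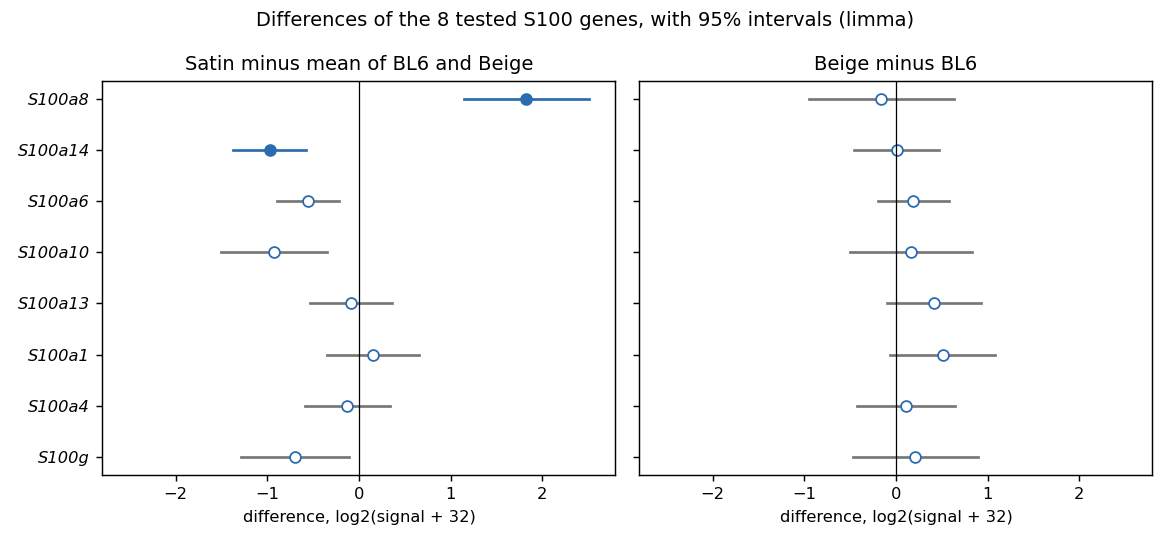
Differences of the 8 tested S100 genes on the log2(signal + 32) scale with 95% intervals from limma, for Satin minus the mean of BL6 and Beige (left) and Beige minus BL6 (right); filled points passed an adjusted p of 0.05. *S100a8* at 1.83 and *S100a14* at -0.97 are the filled points, and no member passed between the control strains.

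The 3 stromal and muscle members gave no call with limma, 0 at an unadjusted p under 0.05, and had a median of -0.08. *S100a4* had signals of 73.9 and 63.1 on the BL6 arrays, 94.9 and 79.4 on those of Beige, and 110.2 and 93.0 on those of Satin. The normalized difference was -0.13 (SE 0.21, 95% interval -0.59 to 0.34), and it turned to 0.29 on unnormalized arrays and 0.32 when these were matched by hybridization controls. *S100a13* had signals of 295.9 and 356.8 on the BL6 arrays, 489.7 and 612.2 on those of Beige, and 477.5 and 728.4 on those of Satin. Its difference was -0.08 (SE 0.20, 95% interval -0.53 to 0.36), and it turned to 0.45 on unnormalized arrays, 0.12 under median centring and 0.50 on the hybridization scale. The BL6 arrays were the lowest as deposited, and against BL6 alone *S100a13* was called on unnormalized arrays (0.80, adjusted p = 0.042) and on the hybridization scale (0.92, adjusted p = 0.0137). In that comparison 1875 of 9388 and 3023 of 9385 genes were called on these 2 scales, with medians of 0.51 and 0.60. Relative to these medians *S100a13* was 0.29 and 0.32.

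*S100a1* was measured by 2 probe sets. The brighter gave 468.6 and 756.2 on the BL6 arrays, 1125.3 and 1012.1 on those of Beige, and 1098.2 and 1469.4 on those of Satin, with a difference of 0.15 (SE 0.22, adjusted p = 0.846). Against both controls it was called in 1 setting, the hybridization scale (0.70, adjusted p = 0.0251), where all genes had a median of 0.47. Against BL6 alone it was 0.41 (adjusted p = 0.576), and it was called on unnormalized arrays (1.05, adjusted p = 0.0128) and on the hybridization scale (1.17, adjusted p = 0.00341). Against BL6 1875 of 9388 and 3023 of 9385 genes were called on these 2 scales. Relative to the medians of all genes there, this probe set was 0.542 and 0.575. The second gave 69.7 and 251.8 on the BL6 arrays, 296.6 and 338.0 on those of Beige, and 302.1 and 409.2 on those of Satin, with a difference of 0.16 (SE 0.39). Both probe sets were lowest on BL6 replicate 1, the array with the low *Gapdh* ratio, and the part of RNA quality in that was not tested.

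Smooth muscle genes had 4 of 13 called lower, against 1.00% of all genes tested, and a median of -0.85. An unadjusted p under 0.05 was reached by 11 of the 13, against 12.6% of all genes tested. In 11 both Satin arrays lay below all controls, against 12.7% of all genes tested. The count called ran from 0 to 10 over 19 settings, with 1 on unnormalized arrays, 0 without the intensity trend and 10 without BL6 replicate 2. It was 0 when either Beige array or Satin replicate 1 was left out, and 2 when Satin replicate 2 was. Over all genes 1531 of 9388 were called on unnormalized arrays and 36 of 9395 without the intensity trend. The 4 called in the main setting were *Des*, *Tpm2*, *Smtn* and *Actg2*, with differences of -1.53, -0.96, -0.89 and -0.97. The summed smooth muscle signal was 13630 to 17723 in BL6, 17171 to 25330 in Beige and 14053 to 15020 in Satin, and on the normalized scale the Satin arrays were lowest, at 11160 and 12266 against 15727 to 22896. Fibroblast markers had 0 of 15 called with limma, 7 at an unadjusted p under 0.05, and a median of -0.27, with *Dpt* at -0.74 (SE 0.18, adjusted p = 0.101) and *Mfap5* at -0.72 (SE 0.20, adjusted p = 0.148). Striated muscle markers had 0 of 4 called with limma, 2 at an unadjusted p under 0.05, with *Tnni2* at -0.91 (adjusted p = 0.142) and *Ckm* at -0.73 (adjusted p = 0.327).

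Set side by side, the differences of both neutrophil members lay above 0 in Satin and those of the 4 epithelial members below. Sums of signals over each group are dominated by 1 gene, *S100a8* in the Satin values of the neutrophil pair and *S100a6* among the epithelial members, and mostly restate it. The pair's summed signal was 18.7 to 33.4 in BL6, 13.6 to 18.9 in Beige and 170.5 to 254.5 in Satin. The epithelial sum was 4019 to 4679, 5380 to 6266 and 3549 to 4990 for the same strains, and after normalization 5201 to 5279, 5619 to 6140 and 2805 to 4127. The sum of the stromal and muscle members was 838 to 1176, 1704 to 1710 and 1686 to 2291. Satin stood apart in the neutrophil sum on both scales and in the epithelial sum after normalization, and it overlapped Beige in the stromal sum. Genes of a group are not replicates, and the difference between groups of members was not tested.

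Between the control strains no member was called, and none of the 8 had an unadjusted p under 0.05. Over all genes limma called 0.00% of 9395, and 5.13% had an unadjusted p under 0.05. Members lay above 0 in Beige in 7 of 8, with a median of 0.18 against -0.01 for all genes. The largest were *S100a1* at 0.51 (SE 0.26, adjusted p = 0.864) and *S100a13* at 0.42 (SE 0.23, adjusted p = 0.864). For *S100a13*, *S100a6*, *S100a10* and *S100g* both Beige arrays lay above both BL6 arrays, 4 of 8 members, where 15.9% of all genes did so. In Satin against Beige 1 of 8 members was called, *S100a8*, where 0.894% of all genes were. Against BL6 0 of 8 were called, where 0.745% of all genes were. In that comparison 4 of the 8 had an unadjusted p under 0.05, against 12.6% of all genes.

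**Figure D4:**
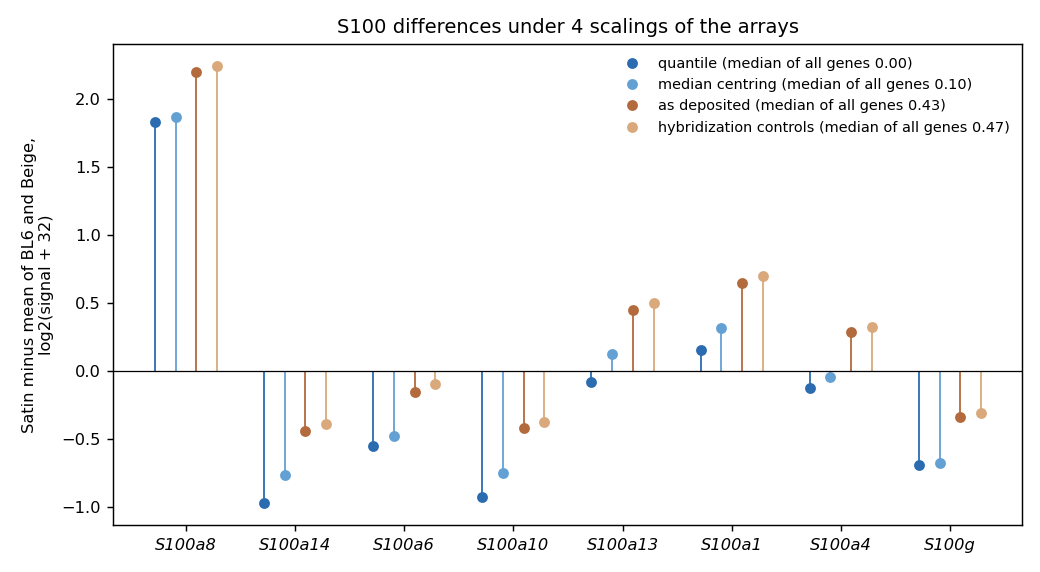
Difference of each tested S100 gene in Satin against the mean of BL6 and Beige, on the log2(signal + 32) scale, under 4 scalings of the arrays, with the median of all genes under each scaling in the key. *S100a8* stayed between 1.83 and 2.25, *S100a14* ran from -0.97 to -0.39, and *S100a13* and *S100a4* changed sign with the scaling.

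S100 genes outside the members were described in the same way. *S100a16*, an epithelial gene of the same cluster, had signals of 749.5 and 946.7 on the BL6 arrays, 1043.0 and 1388.4 on those of Beige, and 1012.5 and 1206.1 on those of Satin, with a difference of -0.36 (SE 0.15, adjusted p = 0.367). *S100b*, the glial S100 gene, was dim and differed by -0.40 (SE 0.35, adjusted p = 0.712). In all 0 of 5 tested genes of that list were called with limma, 1 had an unadjusted p under 0.05, and their median was -0.24.

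RNA of other cell types varied beside these values. Gastric surface markers had 1 of 13 called, *Muc5ac*, the surface mucin gene, at -4.35 (SE 0.15, adjusted p = 1.31e-06), with a list median of 0.03. Lymphocyte and plasma cell markers had 2 of 9 called higher, *Igha* at 3.34 (SE 0.33, adjusted p = 0.00142) and *Jchain* at 2.00 (SE 0.35, adjusted p = 0.0264), which encode the heavy chain and the joining chain of immunoglobulin A. The count called ran from 1 to 4 over 19 settings, with 1 without either Beige array or either Satin array and 4 on unnormalized arrays or the hybridization scale. Over all genes 1531 of 9388 and 2271 of 9385 were called on unnormalized arrays and the hybridization scale. The summed signal of the lymphocyte and plasma cell markers was 454 to 1072 in BL6, 417 to 578 in Beige and 3666 to 3935 in Satin. In Satin *Igha* had signals of 1922.4 and 1710.7 and *Jchain* 1385.8 and 1463.3, so the Satin sums mostly restate these 2 genes. Adipocyte, pancreatic acinar and enteric glia and neuron markers had 0 of 7, 0 of 9 and 0 of 7 called with limma, and 1, 0 and 0 at an unadjusted p under 0.05. Of these lists *Pparg* differed by -0.60 (adjusted p = 0.151), *Retn* by -0.44 (0.683), *Cela1* by -0.60 (0.752), *Cela3b* by 0.41 (0.955), *Prph* by 0.60 (0.533) and *Ret* by -0.38 (0.751).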

How the data were processed

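The deposited values are linear signal intensities, 1 per probe set and array, in a single table of 22690 probe sets, and 0 sample columns were left unused. Trizol was used for total RNA, from which biotinylated cRNA was made, per the labels' protocols. The algorithm behind the signals and their scaling were not given in the sources used here. Arrays were assigned to strains by title. No 2 arrays were copies (35 to 88 equal values in each of 15 pairs).

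The 64 control probe sets were left out, signals were taken as log2(signal + 32) and quantile normalized. Of the rest, 20380 had 1 gene symbol, 691 several and 1555 none. The brightest probe set stood for a gene (12393 genes), and genes with a mean in the lowest 30% of probe sets were left out, which left 9395. The limma package (3.58.1, R 4.3.3; lmFit, then eBayes with intensity trend, two-sided, strain as the factor, all 6 arrays, 3 residual and 9.24 moderated degrees of freedom) gave differences, with Benjamini-Hochberg adjustment over all genes and a call at an adjusted p under 0.05. Single probe sets were tested in a like fit of 15838. In 5 simulations with 200 of 9395 genes changed in Satin against both controls, 30.8% of changes of 1 and 75.8% of changes of 2 on the log2 scale were called, and 3.7% of calls were false. The simulated noise was independent between genes and arrays. These shares therefore leave out effects that genes of an array share, such as admixed tissue, and cannot give the false share in the real data.

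Same-numbered arrays deviated together (correlations of 0.118 to 0.272 for the 3 pairs of strains). The labels do not say what a number marks, so the pairing comes from the data, and the number was used as a block in an alternative fit. Alternatives covered the pseudocount, scaling, filter, probe sets, limma options, arrays in the fit, a *Gapdh* covariate and each array left out. The counts of the marker lists under these settings, and their positions on deposited signals, were added after seeing the data. All members were named, with up to 4 called genes of each list, or, for lists without a call, the 2 of smallest p, and the 3 genes most alike each of *S100a8*, *S100a6* and *S100g* (*S100a9*, also in the rule, was not tested). *Ager*, *Tlr4*, *Anxa1*, *Anxa2*, *Camp*, *Ctsg*, *Cxcr2*, *Vdr*, *Trpv6*, *Krt8*, *Krt14*, *Krt15*, *Krtdap*, *Ppl*, *Sprr1b*, *Elane*, *Fpr2*, *Clec4d*, *Ncf4*, *Chil1* and *Prtn3* were named beyond that rule, after their values were seen. So were *Clps*, *Cpa1*, *Cd14*, *Bsg*, *Erbb3* and *Myd88*. Members and lists were chosen with earlier results of these data known.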

Additional observations from a re-analysis of the deposited data

How the results depend on the processing

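With 2 arrays per strain the number of arrays limits the precision, and *S100a8*, *S100a9* and most neutrophil markers lie near background. Settings changed the count of members called, while *S100a8* stayed higher and *S100a14*, *S100a10*, *S100a6* and *S100g* stayed lower against both controls in every setting in which they were tested. In Satin against both controls the count was 2, and it was 1 with a pseudocount of 8, the arrays as deposited, median centring, no filter, the lowest 50% left out (which removes *S100a8*), the mean of probe sets or no intensity trend, 0 with the *Gapdh* covariate, and 0 to 2 with an array left out. Against Beige it was 1, and it was 0 with a pseudocount of 8, no filter, the lowest 50% left out, the mean of probe sets, single probe sets, no intensity trend or the *Gapdh* covariate, 2 with the robust option, and 0 to 2 with an array left out. Against BL6 it was 0, and it was 1 with a pseudocount of 100, 3 as deposited or with the hybridization controls, 2 with the robust option, and 0 to 2 with an array left out. The replicate block left these counts at 2, 1 and 0 and changed no call of a member. The count between Beige and BL6 was 0 in all 20 settings. Over all genes, the 135 calls against both controls were 41 higher and 94 lower, 46 and 46 with median centring, 1469 and 62 as deposited and 2210 and 61 on the hybridization scale. They numbered 29 to 293 with an array left out, 36 without the trend, 60 with the *Gapdh* covariate and 228 with the robust option. Against Beige the 84 calls ran from 9 to 191 and against BL6 the 70 from 12 to 3023.

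Signs turned in differences that were not called in the main setting, and no value with the turned sign was called. In other settings some of these were called with the main sign, *S100a1* against both controls (0.70 on the hybridization scale) and *S100a1* and *S100a13* against BL6 (1.05 and 0.80 as deposited). In these 2 comparisons the median of all genes was 0.47 and 0.51. As deposited and with the hybridization controls, *S100a13* was 0.45 and 0.50 and *S100a4* 0.29 and 0.32 against both controls. Against Beige *S100a13* was 0.10 and 0.087, *S100a1* 0.25 and 0.23 and *S100a4* 0.17 and 0.15, and against BL6 *S100a6* was 0.057 and 0.18 and *S100a4* 0.41 and 0.49. With median centring *S100a13* was 0.12 against both controls and *S100a4* 0.018 against BL6. With the *Gapdh* covariate *S100a1* was -0.14 against both controls and -0.039 against BL6, *S100a13* was -0.037 against BL6 and *S100a14* was -0.058 in Beige against BL6. With an array left out *S100a13* ran from -0.42 to 0.26 against both controls, -0.63 to 0.045 against Beige and -0.21 to 0.47 against BL6, and *S100a1* from -0.11 to 0.42 against both controls and -0.36 to 0.16 against Beige. In Beige against BL6 *S100a8* then ran from -0.50 to 0.19, *S100a14* from -0.058 to 0.079 and *S100a4* from -0.060 to 0.27. *S100a9*, below the filter, was -0.004 against BL6 without Satin replicate 2, and in Beige against BL6 0.30 without BL6 replicate 1 and 0.028 without Beige replicate 2. As deposited and with the hybridization controls, all genes had a median of 0.43 and 0.47 against both controls. Relative to these medians *S100a4* was -0.14 and -0.15, with the main sign, and *S100a13* 0.023 and 0.034, still turned. Against BL6 *S100a6* was -0.45 and -0.42 relative to all genes and *S100a4* -0.10 and -0.11, with the main sign. The cause of the turns with the *Gapdh* covariate or with an array left out was not tested.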

Other observations

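The genes whose pattern was most like that of a member were taken by Pearson correlation over the 6 arrays, among 4207 genes with an SD of at least 0.3. For *S100a8* they were *Cldn3*, a tight junction claudin (r = 0.989), *Cdc73* (0.985) and *Alyref* (0.985). For *S100a6* they were *F13a1* (0.998), *Trmt1* (0.997) and *Rab7b* (0.988), and for *S100g* *Gpa33*, an intestinal surface antigen (0.988), *Pkia* (0.986) and *Slc1a5* (0.981). All points share the same 6 arrays and their normalization. Values over 0.95 were reached by 19, 46 and 22 genes for the 3 members.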
